A study of Mus musculus with 4 samples.

Results

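Expression of 10 genes that mark or restrain T cells was followed in CD45-positive cells of the injured brain. They are Foxp3, Il2ra, Ctla4, Pdcd1, Lag3, Icos, Tnfrsf4, Tnfrsf9, Tnfrsf18 and Areg, taken by symbol from the 32285 genes of the count matrices. They were chosen with earlier results of these data known. Leukocytes had been sorted as live CD45-positive cells from the injured hemisphere of C57B6/J mice, all of which had received a cortical brain injury (surgical removal of sensory and motor cortex), and the thalamus and the hippocampus (HPC) were each measured by droplet scRNA-seq in 4 tagged sets. Cells of 4 adult mice, mostly females in the study at large, had been pooled per region in 1 library each. Region therefore cannot be told apart from library. No uninjured mouse was included. A tagged set was taken as 1 mouse, which the labels do not state, and p-values measure only the spread between these sets.

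Regulatory T cells are CD4 T cells that hold other immune cells in check, and the transcription factor Foxp3 defines them. In tissues they carry the high-affinity interleukin 2 receptor chain Il2ra (CD25), the inhibitory receptor Ctla4 and several receptors of the tumour necrosis factor family, and in injured brain they are known as a source of the growth factor amphiregulin (Areg). Inhibitory receptors such as Pdcd1 (PD-1) and Lag3 are checkpoints that dampen T cells after repeated stimulation, while Icos, Tnfrsf4 (OX40), Tnfrsf9 (4-1BB) and Tnfrsf18 (GITR) are costimulatory receptors that appear or increase on activation.

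Of 24939 cells that passed the filters (200 to 7500 genes, mitochondrial share of at most 2%), 2859 were T cells by their CD3 and T cell receptor genes, 1689 in the thalamus and 1170 in the HPC. They were divided by marker UMIs (unique molecular identifiers, each standing for 1 captured mRNA). The regulatory class held 268 cells with a Foxp3 UMI, the CD4 class 727, the CD8 class 204 and the gamma-delta class 925, and 735 T cells stayed unresolved. A set held between 31 T cells in HPC set 3 and 786 in HPC set 1, and the median T cell had 3284 to 3522 UMIs in thalamus sets and 3636 to 4167 in HPC sets. Class values were summed per set over at least 10 cells, which left 4 thalamus and 2 HPC sets for the regulatory and CD8 classes and 4 and 3 for the CD4 and gamma-delta classes. Levels are given as UMIs per 10000 UMIs of the class, with the mean ± SD over sets. No doublet caller was run, 0 barcodes were shared between sets of a region and 65 between the regions. The 9 microglia gate genes summed to 11.4 to 13.2 UMIs per 10000 in T cells of the thalamus and to 9.27 to 10.8 in the HPC, against 323 to 348 in gated microglia. The T cell gate genes stood at 64.9 to 99.5 per 10000 in the T cells of every set and at 0.158 to 0.337 in microglia. The gates used both of these lists, so these differences follow in part from the gates.

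The 10 genes lie on 6 chromosomes (GRCm38), and some are neighbours. Ctla4 (ENSMUSG00000026011, chr1:60887000-60915832) and Icos (ENSMUSG00000026009, chr1:60977927-61000320), members of the CD28 receptor family, are 62094 bases apart on the plus strand. Tnfrsf4 (ENSMUSG00000029075, chr4:156013843-156016612) and Tnfrsf18 (ENSMUSG00000041954, chr4:156026164-156028895) are 9551 bases apart, while Tnfrsf9 (ENSMUSG00000028965, chr4:150914562-150946102) lies elsewhere on that chromosome and overlaps Camta1 on the other strand. Pdcd1 (ENSMUSG00000026285) is at chr1:94038305-94052553 on the minus strand, Il2ra (ENSMUSG00000026770) at chr2:11642807-11693193, Areg (ENSMUSG00000029378) at chr5:91139599-91148432 and Foxp3 (ENSMUSG00000039521) at chrX:7573644-7595245. Lag3 (ENSMUSG00000030124, chr6:124904361-124911705) is 16139 bases from Cd4, a gene of the class gates. Foxp3 overlaps Flicr on the same strand, so some reads may be assigned to either of these genes. It overlaps Ppp1r3f and Ccdc22 on the other strand, and Tnfrsf18 overlaps the antisense gene Gm16008.

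Upstream sequences are shown for 4 members, as examples, 3 of members highest in the regulatory class (Ctla4, Tnfrsf18 and Il2ra) and that of Pdcd1, highest in gamma-delta T cells. Each is the 250 bases before the start site that RefSeq gives (GRCm38.p6), written 5′ to 3′ in the gene's own direction, with GGAAA or its reverse complement TTTCC, the core bound by the activation factor NFAT, in capitals. The windows of Ctla4 and Tnfrsf18 fall inside the GENCODE extent of the gene wholly or in part, since RefSeq starts these genes later.
Ctla4, chr1:60908775-60909024, plus strand: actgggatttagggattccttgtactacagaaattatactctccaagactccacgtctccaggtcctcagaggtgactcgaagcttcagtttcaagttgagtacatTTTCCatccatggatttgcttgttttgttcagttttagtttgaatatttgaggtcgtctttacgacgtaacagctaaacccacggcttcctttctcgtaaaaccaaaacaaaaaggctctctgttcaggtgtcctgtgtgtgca
Tnfrsf18, chr4:156026072-156026321, plus strand: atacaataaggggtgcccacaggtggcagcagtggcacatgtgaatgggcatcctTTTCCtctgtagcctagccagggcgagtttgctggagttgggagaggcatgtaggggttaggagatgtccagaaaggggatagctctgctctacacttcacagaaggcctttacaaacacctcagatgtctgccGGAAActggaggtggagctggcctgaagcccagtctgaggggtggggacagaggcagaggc
Il2ra, chr2:11642542-11642791, plus strand: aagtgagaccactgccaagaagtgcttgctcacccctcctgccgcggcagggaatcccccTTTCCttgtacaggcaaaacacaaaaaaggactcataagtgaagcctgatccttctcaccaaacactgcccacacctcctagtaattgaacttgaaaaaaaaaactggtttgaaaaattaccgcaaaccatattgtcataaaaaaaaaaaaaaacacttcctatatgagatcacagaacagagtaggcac
Pdcd1, chr1:94052554-94052803, minus strand: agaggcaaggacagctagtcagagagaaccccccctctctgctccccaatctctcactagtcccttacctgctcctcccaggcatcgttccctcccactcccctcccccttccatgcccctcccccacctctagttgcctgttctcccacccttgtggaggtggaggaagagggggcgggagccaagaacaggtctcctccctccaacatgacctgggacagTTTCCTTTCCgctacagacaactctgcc
The core occurred 1 time before Ctla4, 2 times before Tnfrsf18, 1 time before Il2ra and 2 times before Pdcd1, on either strand. At least 1 such core was present in 55.6% of 32851 RefSeq promoter windows of 250 bases. The other motifs searched were TGTGGT (Runx), TGANTCA (AP-1) and TAAACA (forkhead), each on both strands, and none of them contains the core. They were in 14.0%, 6.75% and 12.0% of all windows and in 0 of these 4. Among the windows of the other members, TAAACA occurred 1 time in one window each of Tnfrsf9 and Foxp3 and TGANTCA 1 time in the other window of Tnfrsf9.

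The members fell into 3 patterns across T cell classes. Ctla4, Icos, Tnfrsf4, Tnfrsf9, Tnfrsf18 and Il2ra had their highest mean in the regulatory class, as did the rare Areg, whose sets overlapped those of gamma-delta T cells. Pdcd1 was highest in gamma-delta T cells, which carry the T cell receptor of that name. Lag3 was low in every T cell class, and most of its UMIs were in microglia, the resident macrophages of the brain.

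**Figure D1:**
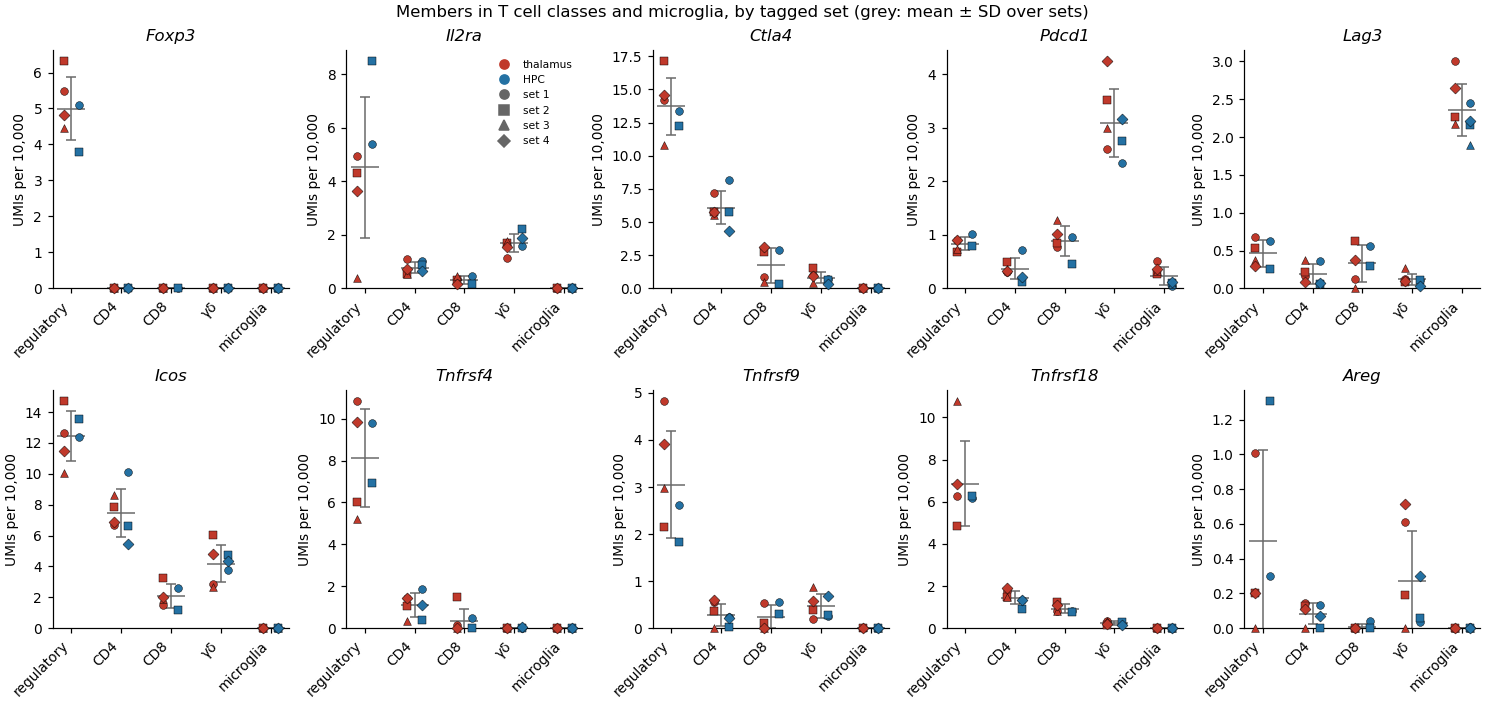
UMIs per 10000 of each member (vertical axis, from 0, 1 panel per gene) in the 4 T cell classes and in microglia; red and blue symbols are thalamus and HPC sets with at least 10 cells, symbol shapes are set numbers, and grey bars are the mean ± SD over sets. Ctla4 averages 13.7 in regulatory T cells and 0.794 in gamma-delta T cells, Pdcd1 averages 3.09 in gamma-delta T cells, and Lag3 averages 2.35 in microglia.

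Foxp3 was part of the gate, so its level is a description. It was at 5.50, 6.31, 4.46 and 4.83 UMIs per 10000 in the regulatory class of thalamus sets 1 to 4 and at 5.08 and 3.78 in HPC sets 1 and 2. The sets of the regions overlapped. Of all 735 Foxp3 UMIs, 76.2% were in the regulatory class, 6.12% in microglia and 11.6% in cells that met no gate. A further 43 were in unresolved T cells, which also held a Cd8a or Cd8b1 UMI. After every cell had been thinned to 2463 UMIs, 73.2% ± 9.56 (SD, n = 5 sets) of the regulatory class still had a Foxp3 UMI, so part of the class can be missed in shallow cells, which are then counted as CD4 or unresolved.

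Il2ra, which lets a T cell respond to low interleukin 2, averaged 4.52 ± 2.63 UMIs per 10000 in the regulatory class (n = 6 sets), 1.69 ± 0.334 in gamma-delta (n = 7), 0.775 ± 0.218 in CD4 (n = 7) and 0.322 ± 0.145 in CD8 T cells (n = 6). In regulatory T cells it was at 4.93, 4.30, 0.372 and 3.62 in thalamus sets 1 to 4 and at 5.40 and 8.48 in HPC sets 1 and 2. Thalamus set 3, with 10 regulatory cells and 1 Il2ra UMI, was below the gamma-delta level of the same set, 1.76, and the other 5 sets were above theirs (exact sign-flip p = 0.0625 over 6 sets, two-sided and, like all such values here, unadjusted over the 10 members compared). Il2ra in CD4 T cells ranged from 0.542 to 1.08 and in gamma-delta T cells from 1.14 to 2.23, and these classes did not overlap. Interleukin 2 itself (Il2) was nearly absent, with 53 UMIs in all CD4 T cells and 7 in CD8 T cells.

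Ctla4, which competes with CD28 for the ligands CD80 and CD86, averaged 13.7 ± 2.16 in regulatory, 6.07 ± 1.25 in CD4, 1.73 ± 1.31 in CD8 and 0.794 ± 0.402 UMIs per 10000 in gamma-delta T cells. Regulatory T cells held 14.2, 17.1, 10.8 and 14.6 in thalamus sets 1 to 4 and 13.4 and 12.3 in HPC sets 1 and 2, and CD4 T cells held 7.22, 5.74, 5.53 and 5.74 in the thalamus and 8.19, 5.74 and 4.34 in HPC sets 1, 2 and 4. Every regulatory sum was above every CD4 sum. The CD8 class was uneven, with Ctla4 at 0.882, 2.74, 0.478 and 3.09 in thalamus sets and 2.89 and 0.300 in HPC sets, and it did not differ from gamma-delta T cells beyond its spread (higher in 4 of 6 sets, exact sign-flip p = 0.219). With 58.5% ± 9.53 of CD4 T cells positive for Ctla4 at equal depth against 88.4% ± 3.39 of regulatory T cells, Ctla4 was no marker of the regulatory class alone.

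Pdcd1, an inhibitory receptor bound by PD-L1 (Cd274) and PD-L2 (Pdcd1lg2), had another order. Gamma-delta T cells held 2.61, 3.51, 3.0 and 4.24 UMIs per 10000 in thalamus sets 1 to 4 and 2.34, 2.75 and 3.16 in HPC sets 1, 2 and 4, a mean of 3.09 ± 0.637. The next classes were CD8 at 0.882 ± 0.275 and regulatory at 0.837 ± 0.127, which did not differ beyond their spread (CD8 higher in 3 of 6 sets, exact sign-flip p = 0.750), and CD4 was lowest at 0.365 ± 0.194. No CD8 or regulatory sum exceeded 1.28, so the gamma-delta sums stood clear of all others. Of the 4004 Pdcd1 UMIs in all cells, 28.9% were in gamma-delta T cells, 2.37% in regulatory T cells and 49.7% in microglia.

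Lag3, an inhibitory receptor for MHC class II, averaged 0.461 ± 0.173 in regulatory, 0.329 ± 0.244 in CD8, 0.190 ± 0.133 in CD4 and 0.119 ± 0.0704 UMIs per 10000 in gamma-delta T cells. These means rest on 58, 32, 69 and 35 UMIs. Regulatory T cells were above CD4 T cells in 6 of 6 sets (exact sign-flip p = 0.0312, the smallest that 6 sets allow), while the CD8 class overlapped both. At equal depth 5.72% ± 4.05 of regulatory T cells had a Lag3 UMI, against 4.65% ± 3.50 of neutrophils, a cell type not known for Lag3. The neutrophil share rests on 151 of 921 cells, and over all neutrophils Lag3 averaged 0.171 ± 0.147 UMIs per 10000.

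Icos, which binds Icosl, was found in most T cells. It averaged 12.5 ± 1.63 in regulatory, 7.47 ± 1.53 in CD4, 4.18 ± 1.19 in gamma-delta and 2.09 ± 0.747 UMIs per 10000 in CD8 T cells, and each class was above the next in every set that held both. The regulatory class held 12.7, 14.7, 10.0 and 11.5 in thalamus sets and 12.4 and 13.6 in HPC sets. Only the CD4 sum of HPC set 1, at 10.1, reached into the regulatory range.

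The 3 tumour necrosis factor receptors differed in how far they reached beyond regulatory T cells. Tnfrsf4 was at 10.8, 6.04, 5.20 and 9.85 UMIs per 10000 in regulatory T cells of the thalamus and at 9.79 and 6.92 in the HPC, and its highest CD4 sum was 1.89. In gamma-delta T cells it was at 0 in all 4 thalamus sets, with 3 UMIs in 925 cells, a pooled level 0.00638 times that of CD4 T cells (95% exact interval 0.00131 to 0.0188, counting error only). Gamma-delta T cells thus showed almost no Tnfrsf4. Tnfrsf18 was at 6.28, 4.83, 10.8 and 6.84 in regulatory T cells of the thalamus and at 6.18 and 6.26 in the HPC, then 1.46 ± 0.321 in CD4, 0.931 ± 0.209 in CD8 and 0.243 ± 0.0935 in gamma-delta T cells, each class above the next in every set with both. Tnfrsf9 was at 4.82, 2.15, 2.97 and 3.92 in thalamus sets and 2.62 and 1.83 in HPC sets. Outside regulatory T cells it averaged 0.467 ± 0.251 in gamma-delta, 0.285 ± 0.234 in CD4 and 0.248 ± 0.253 in CD8 T cells, which overlapped each other. Natural killer (NK) cells, at 1.74 ± 0.885 (n = 4 sets), overlapped the regulatory range of Tnfrsf9, from 0.838 to 2.96.

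Areg, a ligand of the epidermal growth factor receptor, was the rarest member, with 301 UMIs in all cells. T cells held 83.4% of them, 143 in the gamma-delta and 48 in the regulatory class. In regulatory T cells Areg was at 1.01, 0.201, 0 and 0.201 UMIs per 10000 in thalamus sets and 0.300 and 1.30 in HPC sets. In gamma-delta T cells it was at 0.612, 0.190, 0 and 0.713 in the thalamus and 0.0334, 0.0573 and 0.301 in HPC sets 1, 2 and 4. Both ranges began at or near 0 and overlapped, and 5.04% of regulatory and 3.60% of gamma-delta T cells, pooled over sets, had an Areg UMI at equal depth. Microglia, at 0.0112%, and neutrophils, at 0 of 151 cells, served as background.

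To ask which members distinguished regulatory from other CD4 T cells, summed counts of the classes were compared with edgeR with the set as a block. Of the 10 members, Foxp3 defined the gate, Lag3 and Areg fell below the filter on low counts, and the other 7 were tested. All 7 were higher in regulatory T cells, where 6.51% of 4468 genes were called higher at an adjusted p under 0.05 and 12.4% in either direction. Their median log2 fold change was 2.07, against 0.00 over all genes tested. The largest was that of Tnfrsf9, 3.22 ± 0.267 (SE, adjusted p = 4.89e-12), followed by Tnfrsf4 at 2.76 ± 0.197 (adjusted p = 5.39e-14), Il2ra at 2.55 ± 0.174 (adjusted p = 2.02e-14) and Tnfrsf18 at 2.07 ± 0.128 (adjusted p = 2.05e-15). The differences of Ctla4 (1.07 ± 0.154, adjusted p = 1.17e-06), Pdcd1 (0.97 ± 0.257, adjusted p = 0.00681) and Icos (0.73 ± 0.123, adjusted p = 2.36e-05) were smaller. Thus the tumour necrosis factor receptors and Il2ra separated the classes by larger folds than the CD28 family members did. Without the filter on low counts Areg was higher by 2.02 (adjusted p = 1.22e-06) and Lag3 by 1.18 (adjusted p = 0.00841), in edgeR's quasi-likelihood test. Areg rests on 48 UMIs in regulatory and 35 in CD4 T cells. It was higher in regulatory T cells in 5 of 6 sets (exact sign-flip p = 0.0625).

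**Figure D2:**
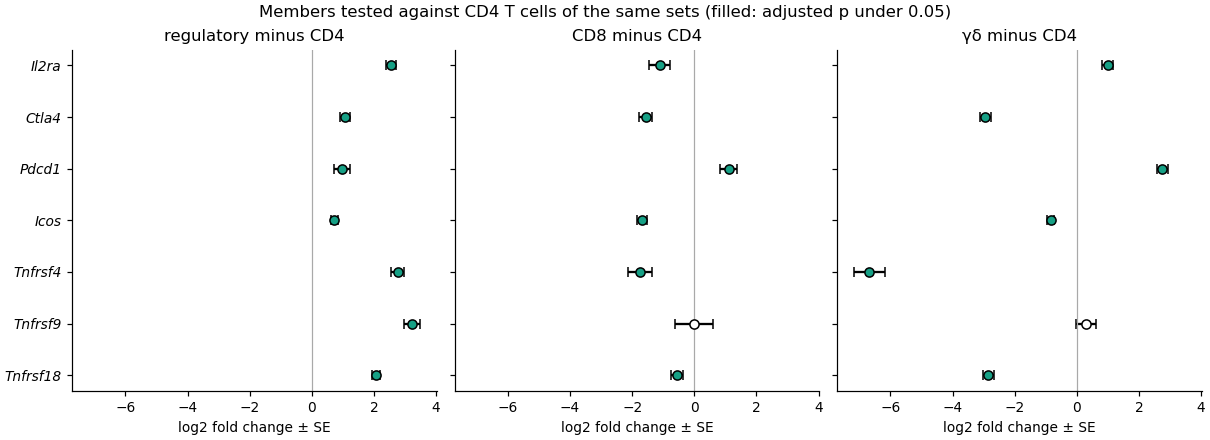
Log2 fold change ± SE (horizontal axis) of the 7 members that passed the filter, in regulatory, CD8 and gamma-delta T cells against CD4 T cells; filled points have an adjusted p under 0.05. All 7 points lie right of 0 in the first panel, only Pdcd1 is called higher in the second, and Pdcd1 (2.75) and Il2ra (1.00) are called higher in the third.

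Because a single Foxp3 UMI set the gate, 2 other definitions were tried. With at least 2 Foxp3 UMIs the difference of Pdcd1 was 0.83 and was not called (adjusted p = 0.157), and the other 6 members kept their calls. With a gate on Ikzf2 (Helios, a transcription factor of many regulatory T cells) that ignored Foxp3, 251 regulatory and 599 CD4 T cells were compared and 98 genes were called, and the same 7 members were among them. Under that gate Foxp3, which then chose no cell, was at 1.51 ± 0.386 UMIs per 10000 in the regulatory class (n = 5 sets) and at 0.306 ± 0.264 in the CD4 class (n = 7), Tnfrsf4 at 4.03 ± 1.57 and 0.835 ± 0.324, and Ctla4 at 11.2 ± 1.92 and 6.34 ± 1.47.

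Other genes of the regulatory programme moved with the members. Of 25 genes listed, 16 were tested and 13 were higher in regulatory than in CD4 T cells, with none lower and a list median of 0.80. They included Ikzf2 (3.40), the integrin chain Itgae (3.14), the folate receptor family gene Izumo1r (2.74), Ikzf4 (2.55), the repressor Prdm1 (1.32) and the ATP-degrading enzyme Entpd1 (1.28). Of 15 other checkpoint and exhaustion genes, 7 were tested, 4 were higher, among them Tox (1.46) and Havcr2 (1.00, the gene of TIM-3), and Cd96 was lower (-1.46). Of 12 costimulation and interleukin 2 receptor genes, 11 were tested, 5 were higher, among them Cd27 (2.12), Tnfrsf1b (1.22) and Il2rb (0.61), and 3 were lower, among them Cd40lg (-3.52) and Cd226 (-1.03). Of 11 residency and naive genes, 8 were tested and 4 were lower, where 5.86% of all genes were called lower, with Itga1 at -1.97, Tcf7 at -1.96, Cxcr6 at -1.51 and Rgs1 at -0.48. Outside the lists, Frmd5 (4.17), the cytotoxic protease Gzmb (3.36) and the G protein regulator Rgs16 (3.02) were also higher, and the cytokine Il17a (-4.20), Tgfbr3 (-3.78), Apol7e (-3.58) and Tnfsf8 (-2.95) were lower, each with the same sign in 6 of 6 sets.

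CD8 T cells, which kill infected or altered cells, carried less of most members than CD4 T cells. Of the 7 tested, 5 were lower, where 7.01% of genes were called lower, with Icos at -1.67 ± 0.160 (adjusted p = 1.41e-10), Ctla4 at -1.57 ± 0.201 (adjusted p = 8.26e-08), Tnfrsf4 at -1.76 ± 0.385 (adjusted p = 6.69e-04), Il2ra at -1.12 ± 0.333 (adjusted p = 0.0143) and Tnfrsf18 at -0.57 ± 0.191 (adjusted p = 0.0342). Pdcd1 was higher by 1.11 ± 0.272 (adjusted p = 0.00254), where 8.89% of genes were called higher, and Tnfrsf9 was at -0.00 ± 0.612 (adjusted p = 0.998). The members' median was -1.12, against -0.00 over all genes. The call of Tnfrsf18 was lost in 10 of 17 alternative analyses, and Tnfrsf4 was uneven within the class, at 1.47 in thalamus set 2 and at 0 in 3 of the other 5 sets. With at most 2 microglia gate UMIs per cell 36 genes were called, and of the members' 6 calls that of Icos was kept. Of the 15 other checkpoint and exhaustion genes, 7 were tested, 3 were higher in CD8 T cells (Nr4a2 at 3.46, Tox at 1.82 and Entpd1 at 0.94), Cd5 was lower (-1.89) and 3 were not called, with a list median of -0.02.

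Gamma-delta T cells differed from CD4 T cells in 6 of the 7 tested members, where 26.7% of genes were called. Pdcd1 was higher by 2.75 ± 0.174 (adjusted p = 1.09e-16) and Il2ra by 1.00 ± 0.174 (adjusted p = 1.27e-05), where 12.4% of genes were called higher. Ctla4 was lower, at -2.95 ± 0.182 (adjusted p = 5.02e-17), Tnfrsf18 at -2.85 ± 0.184 (adjusted p = 1.93e-16), Icos at -0.84 ± 0.117 (adjusted p = 2.14e-07) and Tnfrsf4 was called lower as well (adjusted p = 1.37e-14), where 14.2% of genes were called lower. Tnfrsf9 was not called (0.30 ± 0.313, adjusted p = 0.538). The median of the 7 was -0.84, against -0.01 over all genes tested. Of 11 costimulation and interleukin 2 receptor genes tested, 5 were lower, among them Cd28 (-6.75), Cd40lg (-5.79) and Cd2 (-3.92), Tnfrsf25 was higher (0.65) and 5 were not called, with a median of -0.14. Of 7 other checkpoint genes tested, Tox (1.61) and Nr4a2 (1.52) were higher, Cd5 (-3.34) and Entpd1 (-2.24) lower and 3 not called, with a median of 0.09. All 6 calls of members held under each of 17 alternative analyses, and the difference of Pdcd1 ranged from 2.59 to 3.41 among them.

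To compare single cells at equal depth, cells were thinned to 2463 UMIs, which left out 12.61% of thalamus and 6.07% of HPC T cells as too shallow. Ctla4 was then found in 88.4% of regulatory, 58.5% of CD4, 20.6% ± 12.1 of CD8 and 11.4% ± 4.16 of gamma-delta T cells, and in 0.259% ± 0.136 of microglia. Tnfrsf18 was found in 62.8% ± 2.82, 23.9% ± 5.43, 19.2% ± 7.14 and 5.86% ± 2.68, and Tnfrsf4 in 56.7% ± 11, 17.2% ± 8.55, 4.79% ± 7.22 and 0.204% ± 0.540 of the same classes. Pdcd1 was found in 42.8% ± 6.33 of gamma-delta T cells against 12.2% ± 4.87 of regulatory T cells. Neutrophils, taken as background, were at 0.275% ± 0.549 for Ctla4, 4.10% ± 3.72 for Tnfrsf18 and 0% for Pdcd1 and Il2ra. The gamma-delta share for Tnfrsf18 is close to that background, which rests on the 151 of 921 neutrophils that were deep enough. Over all cells Tnfrsf18 averaged 0.243 ± 0.0935 UMIs per 10000 in gamma-delta T cells and 0.102 ± 0.115 in neutrophils. Unthinned and pooled over sets, 92.5% of regulatory T cells had a Ctla4 UMI and 56.3% of gamma-delta T cells a Pdcd1 UMI.

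**Figure D3:**
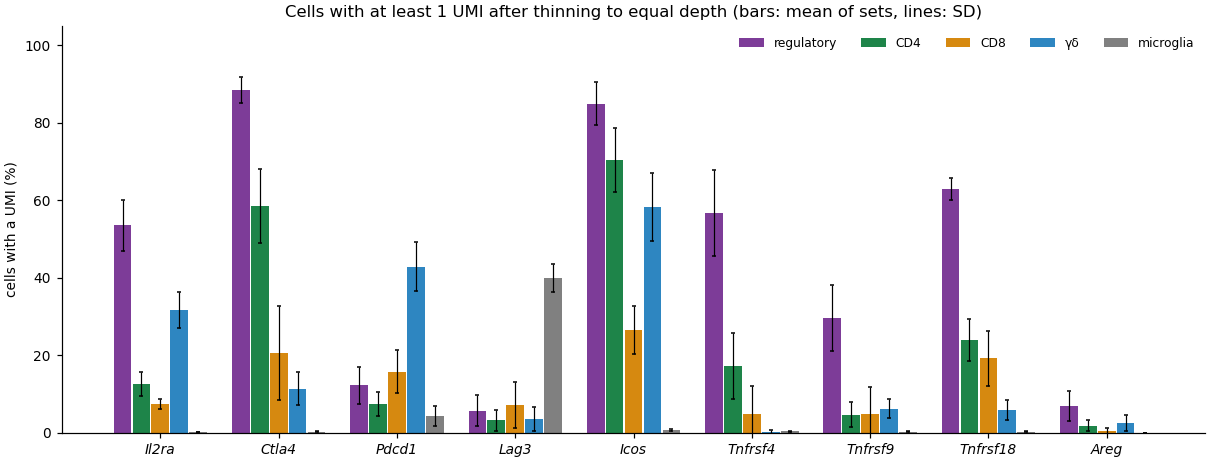
Share of cells with at least 1 UMI of the 9 members other than Foxp3 (vertical axis in %, from 0) after thinning to equal depth; bars are means over sets and lines their SD, in the 4 T cell classes and in microglia. Pdcd1 is found in 42.8% of gamma-delta T cells and Lag3 in 40.0% of microglia, and the other 7 members have their tallest bar in regulatory T cells.

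Counted per cell, the 9 members other than Foxp3 accumulated in regulatory T cells. A thinned regulatory T cell carried UMIs of 4.03 members on average, against 2.15 in CD4, 1.69 in gamma-delta and 1.11 in CD8 T cells, and 0.466 in microglia. At least 4 members were found in 64.7% of 238 regulatory, 10.6% of 681 CD4, 4.44% of 833 gamma-delta and 3.63% of 193 CD8 T cells. Within the regulatory class, Ctla4 and Icos shared 72.3% of cells, against 72.7% for independent genes. The tumour necrosis factor receptors were found together more often than independent genes would be, with 46.2% against 39.7% for Tnfrsf4 and Tnfrsf18, 23.9% against 18% for Tnfrsf9 and Tnfrsf18 and 22.3% against 17.5% for Tnfrsf4 and Tnfrsf9. In CD4 T cells the same 3 pairs shared 7.20% against 4.47%, 2.64% against 1.36% and 2.64% against 1.08%. These shares pool cells of several sets and are descriptions only.

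To show which genes had profiles most like each member, levels were correlated over 26 sums of class and set among 8931 genes. The points share sets and libraries, so these are descriptions. Foxp3 was nearest to Itgb8 (Pearson's r 0.94), Il10 (0.91) and Pim1 (0.89), Tnfrsf4 to Izumo1r (0.96), and Tnfrsf18 to Rhoh (0.91) and Tnfrsf4 (0.91). Ctla4 was nearest to Cd200 (0.91) and Tnfrsf4 (0.91), Icos to the chemokine receptor Ccr4 (0.93), and Tnfrsf9 to Plec (0.84) and Nfkbia (0.84). Pdcd1 was nearest to Airn (0.92) and Cerk (0.90), and Il2ra to Nrip1 (0.86). Lag3 and Areg, with few UMIs, reached 0.74 with Saraf and 0.78 with 2210408I21Rik.

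The regional question was whether T cells of the thalamus carried more or less of these genes than those of the HPC. Without a block none of the 10 members was called in all gated T cells, where 0.176% of 9080 genes were. With the set number as a block, which pairs the sets of the regions, 1 of the 10 was called, Il2ra, where 1.77% of genes were. The levels overlapped between regions for all 10 members, while 4.75% of genes did not overlap. Il2ra was at 1.48, 1.25, 1.02 and 1.28 UMIs per 10000 in thalamus sets 1 to 4 and 1.83, 1.83, 1.33 and 1.73 in HPC sets 1 to 4. It was lower in the thalamus in 4 of 4 pairs. Its log2 difference, thalamus minus HPC, was -0.47 ± 0.117 without the block (unadjusted p = 0.00125 and adjusted p = 0.202, edgeR) and -0.44 with it (adjusted p = 0.0156). The 16 genes called were led by Spp1 (4.92), Apoe (0.88) and Ctsl (1.57), genes also known from activated microglia, beside the higher level of microglia gate genes in thalamus T cells given above, whose part was not tested. Unadjusted, 609 genes and 1 member had p under 0.05.

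The classes were also compared singly, first without the block. In regulatory T cells 0 of 9 tested members were called, where 0.232% of 3014 genes were, and the log2 differences ran from -0.69 (Il2ra) to 0.57 (Tnfrsf9). Il2ra was the only member whose regions did not overlap there, as did 13.3% of genes. In CD4 T cells 0 of 7 were called, against 0.146% of genes, with Tnfrsf9 at 1.29 ± 0.408 (adjusted p = 0.340) and Tnfrsf18 at 0.46 ± 0.179 (adjusted p = 0.534). Tnfrsf18 was at 1.77, 1.47, 1.47 and 1.90 UMIs per 10000 in CD4 T cells of the thalamus and at 1.34, 0.914 and 1.33 in the HPC, without overlap, as in 6.88% of genes. In CD8 T cells 0 of 4 were called, against 0.581% of genes, and in gamma-delta T cells 0 of 5, against 0.484%, with Ctla4 at 0.83 ± 0.272 (adjusted p = 0.303) and Pdcd1 at 0.38 ± 0.160 (adjusted p = 0.600), both with overlapping regions, while 8.15% of genes there did not overlap. At an unadjusted p under 0.05 there were 2 members each in regulatory, CD4 and gamma-delta T cells and 0 in CD8 T cells. With the block 0 of 9 members were called in regulatory (0.531% of genes) and 0 of 4 in CD8 T cells (0.205%). In CD4 T cells Tnfrsf9 was called, 1 of 7 members where 0.615% of genes were, at 1.51 (adjusted p = 0.0429, edgeR). In gamma-delta T cells Ctla4 was called, 1 of 5 members where 1.99% of genes were, at 0.99 (adjusted p = 0.00453, edgeR). No interaction of class and region was called for any gene, regulatory or CD8 against CD4 (154 and 193 of 4468 genes at an unadjusted p under 0.05), and the member nearest to one was Tnfrsf9 in CD8 T cells (-2.86, adjusted p = 0.663).

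**Figure D4:**
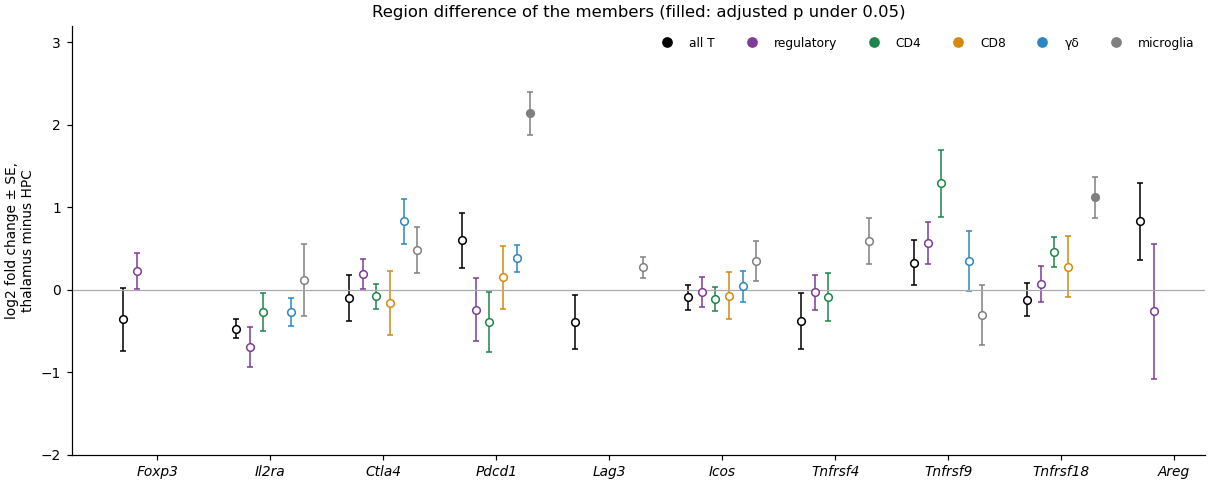
Log2 fold change ± SE, thalamus minus HPC (vertical axis), of each member in all T cells, in the 4 classes and in microglia, from the fits without a block; only fits in which the member passed the filter are drawn, and filled points have an adjusted p under 0.05. The filled points are Pdcd1 (2.14) and Tnfrsf18 (1.12) in microglia.

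Beside the CD8 values stands the MHC class II level of that class, since the genes are not those of T cells. H2-Aa, H2-Ab1 and H2-Eb1 together were at 7.09 and 19.8 UMIs per 10000 in the CD8 class of HPC sets 1 and 2 and at 0.159 to 0.480 in the thalamus sets. Their part in the CD8 values was not tested. Ctla4 in this class turned from -0.16 to 2.59 without HPC set 1. The HPC was then a single sum of 12 cells with 2 Ctla4 UMIs, assumed to vary like the thalamus sets, so the adjusted p of 0.0391 has no spread within the HPC behind it.

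No regional difference in shares passed the test, which did not pair the sets by number. At equal depth, T cells with a Foxp3 UMI were 6.11% ± 3.78 in the thalamus and 7.56% ± 3.03 in the HPC (n = 4 and 4, exact permutation p = 0.571), and those with a Pdcd1 UMI 22.3% ± 8.88 and 17.7% ± 6.11 (exact permutation p = 0.486). Over the 10 members the lowest such p was 0.229, for Il2ra, at 23.1% ± 0.856 and 24.4% ± 1.62. The regulatory class made up 8.65% ± 3.58 of T cells in the thalamus and 9.23% ± 3.53 in the HPC (exact permutation p = 0.83). The CD4 class had the largest difference, -9.62 percentage points (thalamus minus HPC, with the HPC at 29.6% ± 6.63), lower in the thalamus in 4 of 4 set numbers (exact permutation p = 0.171, adjusted p = 0.686 over 4 classes). The CD8 class made up 9.16% ± 4.60 and 7.15% ± 1.78, and the gamma-delta class differed by 4.69 points from 28.2% ± 13.9 in the HPC. Among sets the regulatory share ranged from 3.71% in thalamus set 4, where 61.8% of T cells were gamma-delta, to 14.0% in HPC set 1.

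Lag3 and Pdcd1 were also found in microglia, whose gate allowed at most 1 UMI of the T cell gate genes. Lag3 was at 3.0, 2.27, 2.17 and 2.65 UMIs per 10000 in microglia of thalamus sets 1 to 4 and at 2.45, 2.17, 1.89 and 2.21 in HPC sets 1 to 4. In each of the 8 sets this exceeded the level in T cells, 0.195 ± 0.0805, by exact sign-flip test the smallest p that 8 sets allow, 0.00781 (unadjusted, 10 members compared). Microglia held 93.1% of the 24209 Lag3 UMIs and T cells 1.04%, and at equal depth 40.0% ± 3.63 of microglia had a Lag3 UMI. The Lag3 of T cells can be set beside the microglial RNA in them. Microglia gate genes reached 3.26% of their microglial level in T cells, whose gate kept only cells with fewer microglia than T cell gate UMIs. At that ratio Lag3 would be at 0.0768 UMIs per 10000. The measured level was above the value so reckoned for the same set in 8 of 8 sets for all T cells. The same held in 6 of 6 sets for regulatory T cells and in 3 of 7 for gamma-delta T cells, with means of 0.119 against 0.0900 in the latter. The gate itself limits that ratio, and the part of microglial RNA in the Lag3 of T cells was not tested.

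**Figure D5:**
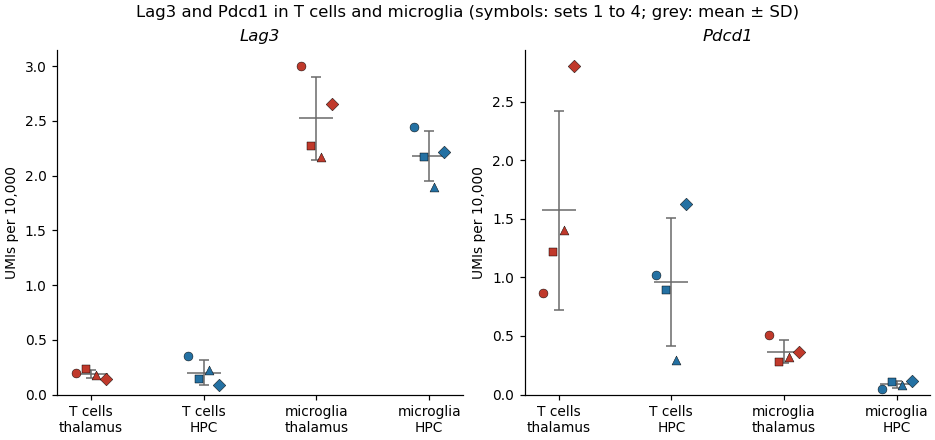
UMIs per 10000 of Lag3 and Pdcd1 (vertical axes, from 0) in T cells and microglia of the thalamus (red) and HPC (blue); symbols are tagged sets and grey bars the mean ± SD. Lag3 lies between 1.89 and 3.0 in microglia and at or under 0.355 in T cells, and the 4 thalamus sets of microglia lie above the HPC sets for Pdcd1.

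Of the 8 members tested between regions in microglia, Pdcd1 had the largest difference. It was at 0.505, 0.274, 0.322 and 0.362 UMIs per 10000 in thalamus sets 1 to 4 and at 0.0506, 0.109, 0.0803 and 0.114 in HPC sets 1 to 4, without overlap. The log2 difference was 2.14 ± 0.261 (adjusted p = 0.00258, edgeR), and it was called in each of 14 alternative analyses, between 1.92 and 2.28. Tnfrsf18 was called too, at 1.12 ± 0.251 (adjusted p = 0.0227), but from levels of 0.0145 to 0.0230 and 0.00597 to 0.00943, and not without thalamus set 4 (0.94, adjusted p = 0.0711) or HPC set 2, 3 or 4. These 2 of 8 tested members stand beside 7.11% of 13065 genes called higher in thalamic microglia, 3.75% called lower and 18.8% without overlap. T cell gate genes in microglia were at 0.296 to 0.337 UMIs per 10000 in the thalamus and 0.158 to 0.183 in the HPC, and moved in the same direction. In thalamic microglia 10.0 Pdcd1 UMIs were counted per Icos UMI, against 0.299 in T cells and 0.830 in gamma-delta T cells of that region. In the HPC these ratios were 2.71, 0.140 and 0.634. Lag3 was not called between the regions (0.27 ± 0.130, adjusted p = 0.203). With the set number as a block it was, at 0.26 (adjusted p = 0.00244), so that 3 of the 8 tested members were called, in a fit that called 3480 genes, or 26.6%, in place of 1419.

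Ligands of the members differed in the cells that held them. Cd86, bound by Ctla4, was at 4.25 ± 0.122 UMIs per 10000 in microglia and 1.66 ± 0.688 in dendritic cells (DC), and Cd80 at 0.314 ± 0.0454 and 1.06 ± 0.889, with 1.05 ± 0.512 in neutrophils. The ligand of Icos, Icosl, was at 0.460 ± 0.0750 in microglia and 0.828 ± 0.610 in DC. For Pdcd1, Cd274 had its highest means in neutrophils, 1.56 ± 0.787, and DC, 1.26 ± 0.782, and was at 0.681 ± 0.381 in regulatory T cells and 0.311 ± 0.0827 in microglia. Pdcd1lg2 had its highest mean in regulatory T cells, 0.734 ± 0.288, against 0.310 ± 0.119 in neutrophils and 0.0137 ± 0.00772 in microglia. The MHC class II gene H2-Aa, a ligand chain for Lag3, was at 96.2 ± 14.7 in DC and 2.35 ± 1.33 in microglia. Ligands of the tumour necrosis factor receptors were scarce in microglia, with 7 Tnfsf4, 161 Tnfsf9 and 58 Tnfsf18 UMIs in 18987 cells. Tnfsf9 was at 0.252 ± 0.111 UMIs per 10000 in DC and 0.0179 ± 0.00740 in microglia, with means of 0.0922 to 0.131 in the T cell classes. Tnfsf4 was at 0.101 ± 0.140 in DC, and Tnfsf18 at 0. Of 15 ligand and target genes, 10 were tested between regions in microglia, and Tnfsf9 was higher in the thalamus (1.12 ± 0.210, adjusted p = 0.0124) and Icosl lower (-0.34 ± 0.0866, adjusted p = 0.0356).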

How the data were processed

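The authors deposited raw UMI counts per gene and cell, as filtered 10x matrices written by Cell Ranger 7.1.0 per the file headers, 1 per tagged set, with 12 tag oligos counted beside the genes (14.6% of UMIs, left out here). The genome was GRCm38. Of 29190 cells, 24939 were kept (200 to 7500 genes, at most 2% mitochondrial UMIs), and sets held 9789875 to 26636526 UMIs.

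T cells had at least 3 UMIs of T cell receptor and CD3 genes, with at least 2 such genes, at least 1 CD3 UMI and fewer microglia gate UMIs. The gamma-delta class needed Trdc, at least 2 UMIs of Trdc and Tcrg-C genes together and at least 2 CD3 UMIs. It allowed no Cd4, Cd8b1, Foxp3, Ncr1 or Klrb1c. Regulatory T cells had a Foxp3 UMI and no CD8 UMI, CD4 T cells a Cd4 UMI and no Foxp3 or CD8, and CD8 T cells a CD8 UMI and no Cd4 or Foxp3. Microglia had at least 10 UMIs of microglia genes, at least 1 of them of P2ry12, Tmem119 or Siglech, and at most 1 UMI of the T cell gate genes. NK cells, ILC2 cells, neutrophils and DC were gated on their own marker genes, with more UMIs of these than of microglia gate genes.

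Counts were summed per set and class (at least 10 cells) and tested with edgeR 4.0.16 (quasi-likelihood, TMM, low counts removed by filterByExpr, Benjamini-Hochberg over all genes, threshold 0.05) in R 4.3.3. Class contrasts had the set as a block and left out the gate genes, and region contrasts had no block. Shares were compared by two-sided exact permutation of 4 against 4 sets over 70 assignments, and class orders by two-sided exact sign-flip tests over sets (scipy 1.17.1). Cells were thinned to the 10th percentile of T cell UMIs. DESeq2 1.42.0 was an alternative. The scripts were tested on simulated data.

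Sets of the 2 regions share numbers. In microglia their deviations correlated in every pair (0.541, 0.118, 0.4903 and 0.1722), each above 0.1, and in T cells by 0.0302 to 0.2485. Sets of unlike number were not compared, so these correlations cannot decide whether the numbers pair the sets. T cells and microglia come from the same sets. That the numbers pair the sets was assumed, which the labels do not state, and fits with the set number as a block are given where they change a call. Named genes outside the lists were the 5 highest and 5 lowest with the same sign in every set and a CPM of at least 100. The members and gene lists were chosen with earlier results of these data known, and intervals cover counting error only.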

Additional observations from a re-analysis of the deposited data

Results flagged for a closer look

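In 5 of 83 groups of 4 sets, 1 set stood apart from the rest by Dixon's criterion, and chance gives about 1 in 20 such groups. Foxp3 in all gated T cells of the HPC was highest in set 1, at 0.840 UMIs per 10000, with the other sets at 0.350 to 0.382. Ctla4 in CD4 T cells of the thalamus was highest in set 1, at 7.22, against 5.53 to 5.74 in the others. Tnfrsf4 in CD8 T cells of the thalamus was highest in set 2, at 1.47, against 0 to 0.176. Areg in microglia of the HPC was highest in set 1, at 0.00633, against 0 to 6.29e-04. The gamma-delta share of T cells in the HPC was highest in set 4, at 48.9%, against 18.8% to 22.6%. What distinguishes these sets was not tested.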

How the results depend on the processing

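Of 371 alternative values of the members between classes, 354 stayed called in the same direction or stayed not called, and 17 lost the call. Of 561 between regions in T cells, 556 stayed so, 4 gained a call and 1 reversed. The reversed value was Ctla4 in CD8 T cells without HPC set 1, 2.59, with a range of -0.64 to 2.59 over all alternatives. Values that stayed not called were counted whatever their sign, as for Tnfrsf9 in CD8 against CD4 T cells, at -0.81 to 0.97. In microglia 106 of 111 stayed so, with 4 calls lost and 1 gained. All 120 alternative shares of the members stayed not called, whatever their sign. Counts of called genes moved more. Leaving out 1 set at a time gave 4 to 20 genes for the regional contrast in all T cells (7 without HPC set 1, 4 without HPC set 2), 3 to 16 in regulatory (3 without thalamus set 2, 16 without HPC set 2), 3 to 22 in CD4 (3 without thalamus set 4, 22 without HPC set 4), 12 to 40 in CD8 (40 without HPC set 1, 38 without HPC set 2), 7 to 40 in gamma-delta T cells (40 without thalamus set 1, 7 without HPC set 2 or 4) and 493 to 2933 in microglia (493 without HPC set 2, 2933 without HPC set 1). It gave 408 to 572 for regulatory, 551 to 714 for CD8 and 975 to 1304 for gamma-delta against CD4 T cells. The class shares, thalamus minus HPC, ran from -1.73 to 1.06 points (regulatory), -12.7 to -6.98 (CD4), -0.109 to 3.37 (CD8) and -4.93 to 11.6 (gamma-delta).

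With no filter on low counts, where more genes were tested, 125, 25, 69, 42 and 57 genes were called between regions in all, regulatory, CD4, CD8 and gamma-delta T cells, against 16, 7, 9, 17 and 25. There Areg was called in gamma-delta T cells (2.18, adjusted p = 3.55e-04) and Il2ra in all T cells (adjusted p = 0.0471), in edgeR's quasi-likelihood test. With the set number as a replicate block the counts were 161, 16, 38, 6 and 103, and 3480 in microglia. The deviations of same-numbered sets correlated by 0.118 to 0.541 in microglia and by 0.0302 to 0.2485 in T cells, which cannot decide the pairing. The block called Il2ra in all T cells (adjusted p = 0.0156), Tnfrsf9 in CD4 (1.51, adjusted p = 0.0429) and Ctla4 in gamma-delta T cells (0.99, adjusted p = 0.00453). With at most 2 microglia gate UMIs per T cell, which leaves fewer cells, 4 genes were called in all, 2 in CD4 and 0 in gamma-delta T cells by edgeR (97 of 1665 at an unadjusted p under 0.05), and 138, 36 and 564 between the classes. DESeq2 called 2, 3, 9 and 51 in regulatory, CD4, CD8 and gamma-delta T cells. A mitochondrial limit of 5% gave 15 in CD4, leaving out cells above the 95th percentile of UMIs gave 45 in gamma-delta, and the Ikzf2 gate gave 98 between regulatory and CD4 T cells. The cause of these changes was not tested. With at least 20 cells per sum, 18 genes were called in regulatory and 34 in CD8 T cells, from 3 thalamus sets and 1 HPC set that is assumed to vary like them, as in each omission that leaves 1 HPC set. With at most 2 microglia gate UMIs the regional contrasts of these 2 classes could not be fitted, as at most 1 set a region had 10 cells. Depth limits Lag3 and Areg in T cells most, with 251 UMIs each.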

Other observations

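The microglial levels of Pdcd1 and Lag3 were also set beside Cst7, a gene of activated microglia that was chosen after its values were seen. In thalamic microglia without a Cst7 UMI, Pdcd1 was at 0.267, 0.177, 0.159 and 0.174 UMIs per 10000 in sets 1 to 4. In those with at least 2 Cst7 UMIs it was at 0.818, 0.614, 0.878 and 0.732, higher in 4 of 4 sets. Lag3 in the same cells was at 1.92, 1.83, 1.75 and 2.15 without Cst7 and at 4.15, 3.39, 3.49 and 3.65 with it, without overlap. In the HPC Pdcd1 was at 0.0462, 0.109, 0.0741 and 0.0976 without Cst7 and at 0.0672, 0.134, 0.127 and 0.263 with it, from as few as 29 cells in set 3. Lag3 in the HPC was at 2.47, 2.13, 1.88 and 2.17 without Cst7 and at 2.30, 2.74, 1.96 and 2.29 with it, and set 1 went the other way. Cells with more Cst7 UMIs can be deeper cells, and these values are descriptions without a test.

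ILC2 cells, innate lymphocytes with a type 2 programme, were too few to be summed per set. The 14 such cells held 12 Areg UMIs, 10 of them in a single cell of thalamus set 1, against 143 in 925 gamma-delta and 48 in 268 regulatory T cells.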
